A study of Mus musculus with 18 samples.

Results

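The Hox cluster genes are the homeobox transcription factor genes of the Hoxa, Hoxb, Hoxc and Hoxd clusters. Every gene of the expression table whose symbol is Hox, a cluster letter a to d and a paralog number was taken, which gave 39 of the 34244 genes listed. The clusters hold 11 genes on chromosome 6, 10 on chromosome 11, 9 on chromosome 15 and 9 on chromosome 2. The values were those of whole mouse embryos at E11.5, the middle of gestation, measured by RNA-seq as fragments normalized to exon length and to the reads of the library (FPKM), with 1 library per embryo and 3 embryos per genotype.

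Hox genes lie in each cluster in the order in which they are used along the body: genes at the 3′ end, with low paralog numbers, are used in the hindbrain and neck, those in the middle in the trunk, and those at the 5′ end, with high paralog numbers, in the tail, the hindlimb and the ends of the limbs and genital bud. Genes of different clusters with the same paralog number descend from one ancestral gene. Retinoic acid is known to activate the 3′ genes, Cdx factors the trunk genes and Gdf11 the switch to 5′ genes, while Polycomb complexes keep the genes silent in the head.

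The study asked whether the mouse embryo needs the catalytic activity of the DNA methyltransferase Dnmt3b. All embryos came from FVB mice. Dnmt3b+/+ embryos carried the intact gene, Dnmt3b-/- embryos a conventional knockout allele derived from a floxed one meant to remove the gene's function from every cell, and Dnmt3bCI/CI embryos a knock-in at the endogenous locus that replaces catalytic residues and leaves a catalytically inactive protein. By the study's methods the embryos were taken alive from natural matings and the RNA was total RNA of the whole body, in which fewer cells of a type and less RNA per cell cannot be told apart.

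The totals behind the normalization lay between 38451729 and 49808777 reads per library. The value of Dnmt3b, summed over the whole gene, was not lower under the knockout label, at 2.45, 3.12 and 3.33 FPKM against 2.25, 1.62 and 2.04 FPKM in Dnmt3b+/+ embryos, so these libraries are called "labelled Dnmt3b-/-" throughout. A value per gene does not show which exons the reads came from. Some libraries stood apart in tissue markers. Dnmt3b+/+ embryo 2 was almost without liver RNA, with albumin (Alb) at 0.103 FPKM against 85.7 and 43.7 FPKM in its group. Dnmt3bCI/CI embryo 2 was low in forebrain RNA, with 11.9 FPKM summed over 8 forebrain and midbrain markers against 27.6 and 37.5 FPKM. Embryos 2 and 3 labelled Dnmt3b-/- had 5710 and 3290 FPKM summed over 6 blood markers, against 1160 to 2060 FPKM in the other 7 embryos. Some of the results that rest on these libraries are also given below without them.

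Of the 39 Hox genes, 38 reached 0.1 FPKM in 3 or more of the 9 embryos and were tested, as were 19397 genes in all. The exception was Hoxb13, the most 5′ gene of its cluster, a gene of the tail bud and prostate. It had 3, 0 and 28 reads in Dnmt3b+/+ embryos 1 to 3, 3, 3 and 0 reads in the embryos labelled Dnmt3b-/-, and 1, 7 and 4 reads in Dnmt3bCI/CI embryos, where 0 reads allow a true number of up to 3. The 28 reads of Dnmt3b+/+ embryo 3 were the only value above 7, and no difference between genotypes was detectable at this depth (two-sided exact permutation p = 0.9 for both mutants against Dnmt3b+/+, when 0.1 is the smallest p that 3 embryos against 3 allow).

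Promoter sequences show how unlike the starts of these genes are in CG content, the dinucleotide that Dnmt3b methylates. RefSeq windows of 300 bases on GRCm38.p6, from 250 bases before to 50 bases after the start, were at hand for 22 of the 39 genes, in 24 windows. These windows held a median of 14.5 CG dinucleotides, from 4 to 45. The median over all 32851 windows was 7, with quartiles of 3 and 20, so the Hox median lay within the middle range of all windows. The windows of 4 genes are shown because the results turn on them: Hoxd12 and Hoxd8 passed the test, and Hoxb8 and Hoxd13 lay at opposite ends of the pattern in embryos 2 and 3 labelled Dnmt3b-/-. Capitals mark each CG and each TTTATG on either strand, the sequence that Cdx factors are known to bind. TTTATG or its reverse complement was found in 5 of the 24 Hox windows (20.8%) and in 11.9% of all windows. Those were windows of Hoxa7, Hoxb8, Hoxd3, Hoxd4 and Hoxd11. The match did not follow the pattern, since Hoxd11 was high in embryos 2 and 3 labelled Dnmt3b-/-, and Hoxd8, low in both, had no match.
Hoxd12, chr2:74674763-74675062, plus strand, 13 CG: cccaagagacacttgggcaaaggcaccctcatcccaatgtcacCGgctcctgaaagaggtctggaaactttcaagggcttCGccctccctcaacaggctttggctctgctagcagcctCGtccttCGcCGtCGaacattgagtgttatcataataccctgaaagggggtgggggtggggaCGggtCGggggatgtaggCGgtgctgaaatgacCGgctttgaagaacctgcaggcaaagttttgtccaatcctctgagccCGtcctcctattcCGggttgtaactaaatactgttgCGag
Hoxd13, chr2:74667975-74668274, plus strand, 37 CG: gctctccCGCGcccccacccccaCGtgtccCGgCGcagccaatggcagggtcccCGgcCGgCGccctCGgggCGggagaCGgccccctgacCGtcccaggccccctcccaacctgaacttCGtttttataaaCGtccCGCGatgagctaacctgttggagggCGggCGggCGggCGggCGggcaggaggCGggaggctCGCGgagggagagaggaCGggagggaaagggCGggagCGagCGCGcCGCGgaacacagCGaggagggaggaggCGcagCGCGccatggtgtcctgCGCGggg
Hoxd8, chr2:74704365-74704664, plus strand, 6 CG: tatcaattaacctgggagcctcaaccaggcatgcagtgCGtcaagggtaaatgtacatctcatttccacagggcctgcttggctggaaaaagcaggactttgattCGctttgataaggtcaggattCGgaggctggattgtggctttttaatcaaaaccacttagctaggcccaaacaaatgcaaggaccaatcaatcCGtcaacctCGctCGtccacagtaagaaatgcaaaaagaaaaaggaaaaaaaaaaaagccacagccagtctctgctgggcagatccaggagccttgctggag
Hoxb8, chr11:96281655-96281954, plus strand, 13 CG and 2 TTTATG: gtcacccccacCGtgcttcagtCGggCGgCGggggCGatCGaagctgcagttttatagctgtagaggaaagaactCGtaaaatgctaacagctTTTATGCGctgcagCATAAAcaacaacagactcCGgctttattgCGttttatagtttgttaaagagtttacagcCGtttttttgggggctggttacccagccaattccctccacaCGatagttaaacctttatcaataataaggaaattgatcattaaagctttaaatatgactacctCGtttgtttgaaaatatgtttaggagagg
A match is a description of the letters, not of binding. Methylation of these windows was not analysed here.

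In Dnmt3b+/+ embryos the highest gene of each cluster lay between its first and its last gene. Hoxb9, which acts in the thoracic region, was the highest of all at 12.7, 20.9 and 10.4 FPKM, a mean of 14.7 ± 5.54 FPKM (SD, n = 3). Hoxa5, a gene of the neck, upper thorax and lung, led its cluster with 8.20, 17.2 and 10.9 FPKM. Hoxc8, which acts in the brachial and thoracic cord and vertebrae, led the Hoxc cluster with 5.92, 5.95 and 6.82 FPKM, and Hoxd4, a gene of the hindbrain and neck, led the Hoxd cluster with 5.89, 6.0 and 4.20 FPKM. Embryo 2 was the highest of the group for Hoxb9, Hoxa5 and Hoxd4.

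The lowest genes stood at or near the ends of the clusters. Hoxb1, an early hindbrain gene, was at 0.106, 0.138 and 0.110 FPKM. Hoxc11, a gene of the lumbosacral region and hindlimb, was at 0.898 FPKM in embryo 1, had 0 reads in embryo 2 and was at 0.315 FPKM in embryo 3. Hoxd12, which acts in the distal limb, was the lowest of its cluster at 1.71, 0.903 and 1.25 FPKM. For Hoxc11 and Hoxd12 embryo 1 was the highest and embryo 2 the lowest.

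Among the last genes of the clusters, levels differed widely. Hoxd13, a gene of the digits and genital bud, was at 6.88, 4.03 and 4.85 FPKM and thus next to Hoxd4 in mean level. Hoxa13, which acts in the same places, was at 1.47, 0.893 and 1.62 FPKM. Hoxc13, known from hair, nail and tail, was at 0.10, 0.0979 and 1.53 FPKM, and was high in embryo 3 alone.

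By mean level in FPKM, the Hoxa genes described here ran in the order Hoxa5, Hoxa6, Hoxa7, Hoxa2, Hoxa10, Hoxa9, Hoxa3, Hoxa11, Hoxa4, Hoxa13. The Hoxb genes ran Hoxb9, Hoxb8, Hoxb3, Hoxb6, Hoxb5, Hoxb2, Hoxb4, Hoxb7, Hoxb13, Hoxb1. The order in the Hoxc cluster was Hoxc8, Hoxc6, Hoxc4, Hoxc5, Hoxc9, Hoxc10, Hoxc12, Hoxc13, Hoxc11, and in the Hoxd cluster Hoxd4, Hoxd13, Hoxd3, Hoxd9, Hoxd8, Hoxd11, Hoxd10, Hoxd1, Hoxd12. Most neighbours in these orders could not be separated: the ranges over 3 embryos overlapped for 9 of 9 neighbouring pairs in the Hoxa cluster, 8 of 9 in Hoxb, 8 of 8 in Hoxc and 7 of 8 in Hoxd. The gaps lay between Hoxb7 and Hoxb13 and between Hoxd8 and Hoxd11.

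**Figure D1:**
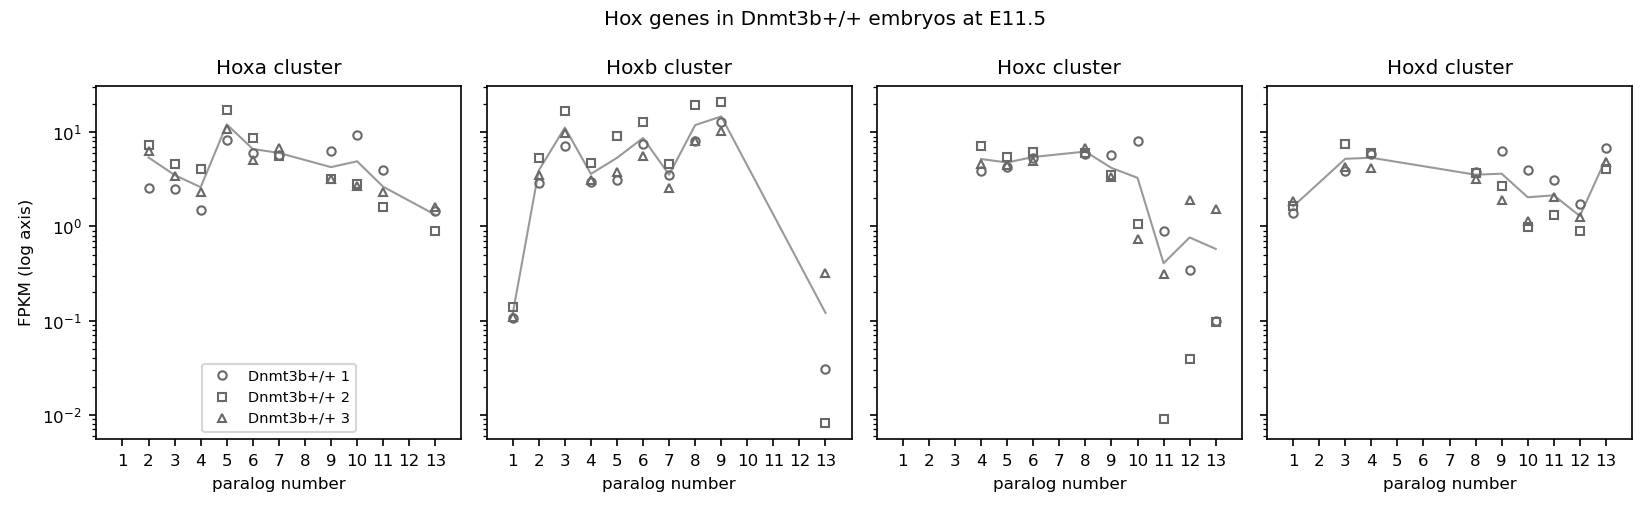
Level of the Hox genes (FPKM, log axis) against their paralog number in the 4 clusters, with 1 symbol for each of the 3 Dnmt3b+/+ embryos and a grey line through the means. The Hoxb genes reach 14.7 FPKM on average at Hoxb9 and fall to 0.121 at Hoxb13, while Hoxd13 stays at 5.25, and the embryos part widely at Hoxb13 and at Hoxc10 to Hoxc13.

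Several members share exon sequence with a neighbour, and whether the reads were counted by strand is not given in the sources used here. In the GENCODE M21 annotation, exons of 15 of the 39 genes overlapped those of another listed gene, 8 on the same strand and 10 on the opposite one. Hoxd3 shared 53.1% and Hoxd4 39.1% of its exon sequence with the readthrough model Gm28230, Hoxb3 52.9% with the antisense Hoxb3os and Hoxa11 35.0% with Hoxa11os. Values of these 4 genes may hold reads of the partner and are uncertain to that extent.

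Dnmt3b+/+ embryos themselves differed along the clusters, by more than other genes did. The median SD between these 3 embryos on the log2 scale was 0.51 over the 38 Hox genes and 0.14 over all genes tested. Embryo 2 was the highest of the group for 10 of 12 genes of paralog groups 1 to 4 and 9 of 15 of groups 5 to 9, and for 0 of 12 of groups 10 to 13. Embryo 1 was the highest for 8 of those 12 posterior genes. Hoxc10, a lumbar and hindlimb gene singled out after its values were seen, was at 8.04 FPKM in embryo 1 and at 1.07 and 0.735 FPKM in embryos 2 and 3. Paralog groups 10 to 13 made up 23.8%, 6.61% and 14.2% of the summed FPKM of all Hox genes in embryos 1, 2 and 3.

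The embryos labelled Dnmt3b-/- disagreed most. Their median SD on the log2 scale was 1.22 over the 38 Hox genes against 0.16 over all genes tested, and 30 of 38 lay above the 95th percentile of all genes, which was 0.59. In the Dnmt3bCI/CI embryos the medians were 0.25 and 0.10. Summed over all 39 Hox genes, embryos 1, 2 and 3 labelled Dnmt3b-/- held 296, 122 and 69.2 FPKM, the Dnmt3b+/+ embryos 167, 209 and 146 FPKM and the Dnmt3bCI/CI embryos 234, 313 and 280 FPKM. Embryo 1 labelled Dnmt3b-/- thus lay above all 3 Dnmt3b+/+ embryos and embryos 2 and 3 below them.

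The disagreement followed the paralog number. Hoxb9 was at 31.0 FPKM in embryo 1 labelled Dnmt3b-/- and at 1.39 and 0.920 FPKM in embryos 2 and 3, or 3182, 152 and 96 reads, while the 6 other embryos lay between 10.4 and 28.3 FPKM. Embryo 1 was above all of those and embryos 2 and 3 below all of them. Hoxb8, its thoracic neighbour, was at 21.1, 1.2 and 0.599 FPKM under that label, at 8.04, 19.6 and 8.02 FPKM in Dnmt3b+/+ and at 19.7, 22.5 and 23.5 FPKM in Dnmt3bCI/CI embryos. Embryo 1 exceeded embryo 3 by 33.7-fold for Hoxb9 and 35.2-fold for Hoxb8. Hoxd13 went the other way, at 6.0 FPKM in embryo 1 and 12.4 and 9.79 FPKM in embryos 2 and 3, against 4.03 to 6.88 FPKM in Dnmt3b+/+ and 3.26 to 6.80 FPKM in Dnmt3bCI/CI embryos. Embryos 2 and 3 were above the other 7 for Hoxd13, and embryo 1 lay within the range of the other genotypes.

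Counted over all members, embryo 1 was the highest of the embryos labelled Dnmt3b-/- for all 27 genes of paralog groups 1 to 9 and for 1 of the 12 genes of groups 10 to 13. It was at or above the lowest Dnmt3b+/+ embryo for all 39 genes, and for 26 it exceeded the highest. The share of all genes that place embryo 1 in these ways was not counted, so these counts cannot be called particular to Hox genes. Embryos 2 and 3 were both below the other 7 embryos for 13 of the 15 genes of groups 5 to 9, all except Hoxa9 and Hoxd9, and for 3 of the 12 genes of groups 1 to 4. In groups 10 to 13 they were both above the other 7 for 4 of 12 genes, Hoxa13, Hoxd11, Hoxd12 and Hoxd13, and below them for 0. Over the 38 Hox genes tested this made 16 below and 4 above. Among all 19397 genes tested, 25.8% lay below and 13.6% above in the same way. The pair was picked once its values were known, so the counts describe these libraries only.

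**Figure D2:**
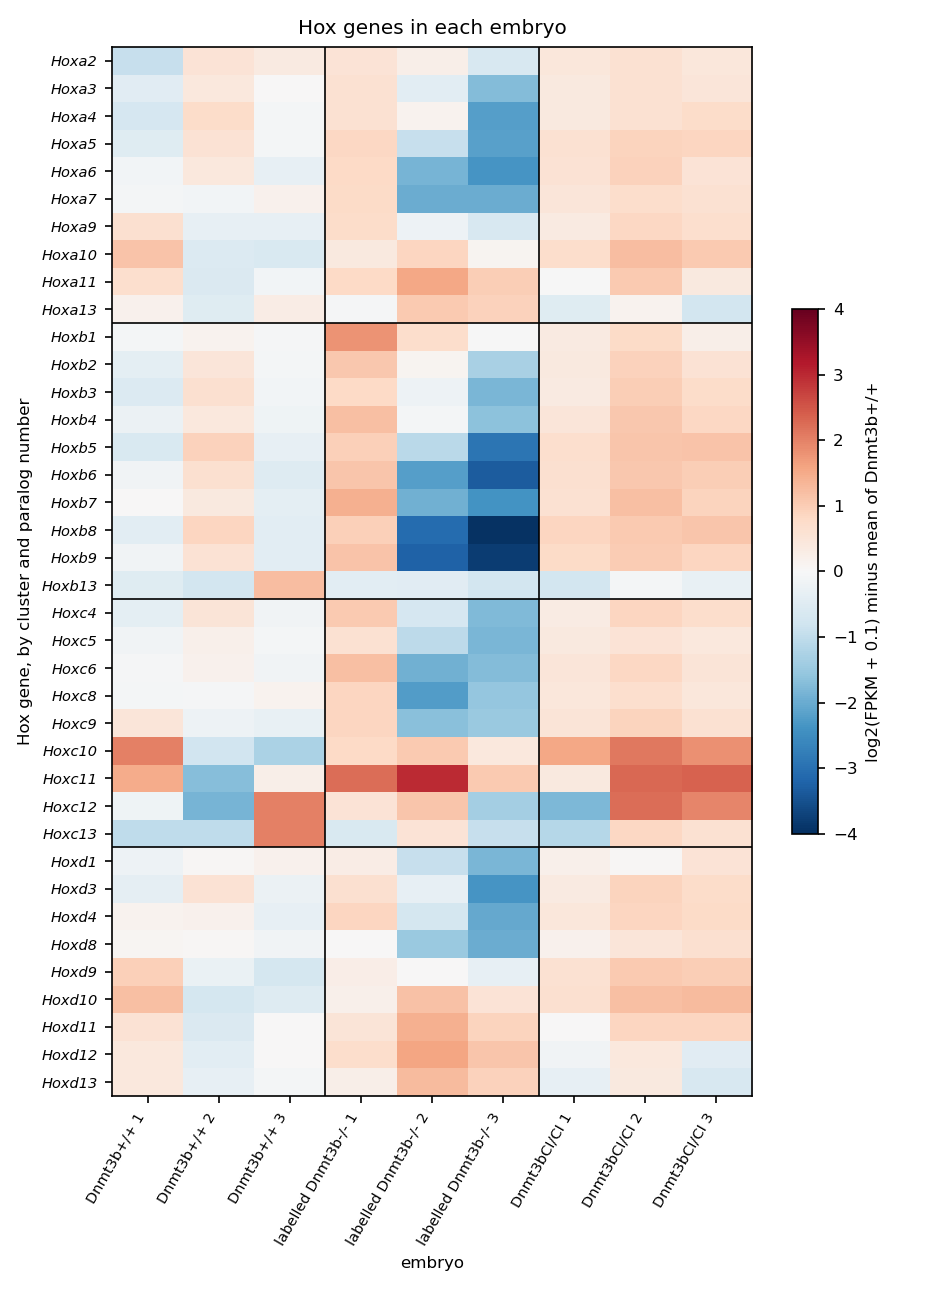
Log2(FPKM + 0.1) of the Hox genes (rows, by cluster and paralog number) in each of the 9 embryos (columns), minus the mean of the 3 Dnmt3b+/+ embryos. Embryos 2 and 3 labelled Dnmt3b-/- are blue in the middle of every cluster, where both lie below the other 7 embryos for 13 of the 15 genes of paralog groups 5 to 9, and red at the 5′ end of the Hoxa and Hoxd clusters. Embryo 1 of the same label exceeds the highest Dnmt3b+/+ embryo for 26 of the 39 genes measured, a count not made over all genes.

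The same turn appeared in ratios within a library, which do not depend on its scaling. The ratio of Hoxb9 to Hoxd13 in FPKM was 5.17 in embryo 1 labelled Dnmt3b-/- and 0.112 and 0.0939 in embryos 2 and 3. It was 1.84, 5.19 and 2.14 in Dnmt3b+/+ and 5.84, 4.16 and 7.90 in Dnmt3bCI/CI embryos. In only embryos 2 and 3 labelled Dnmt3b-/- was Hoxd13 above Hoxb9. Paralog groups 10 to 13 made up 29.7 of 296 FPKM of Hox genes in embryo 1 labelled Dnmt3b-/-, and 42.6% and 49.6% of the sum in embryos 2 and 3. The share was 11.2%, 14.7% and 12.8% in Dnmt3bCI/CI embryos. Within clusters, the ratio of Hoxc10 to Hoxc6 was 0.264, 2.93 and 1.64 in the embryos labelled Dnmt3b-/-, against 1.51, 0.175 and 0.148 in Dnmt3b+/+ embryos. Here Dnmt3b+/+ embryo 1 came near embryo 3 labelled Dnmt3b-/-.

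**Figure D3:**
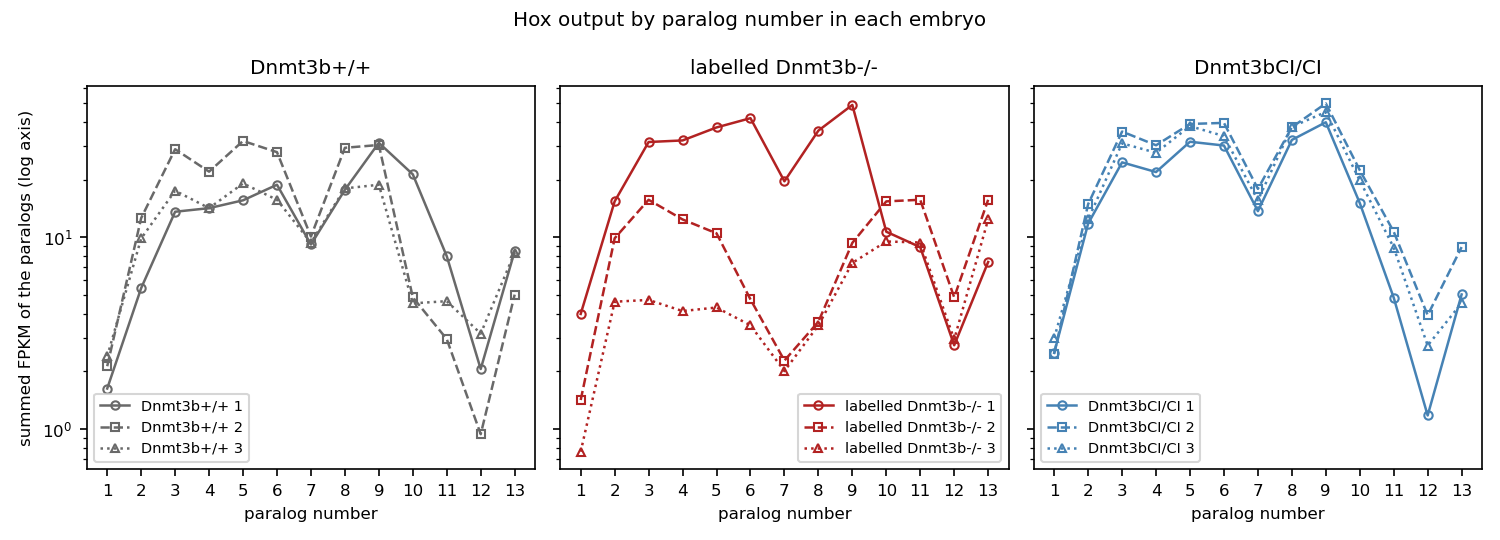
Summed FPKM of the Hox genes with the same paralog number (log axis) against paralog number, with a line per embryo and a panel per genotype. In embryos 2 and 3 labelled Dnmt3b-/- the sum of paralog group 7 falls to 2.28 and 2.01 FPKM, against 19.6 in embryo 1, and the lines meet at groups 10 to 13, where embryo 2 is the highest at 15.7 FPKM for group 13.

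Against Dnmt3b+/+, 1 of the 38 Hox genes tested was higher and 0 were lower in the embryos labelled Dnmt3b-/- (limma on log2(FPKM + 0.1), with a fold change of 2 or more and a p below 0.05 after Benjamini-Hochberg adjustment). Of all 19397 genes tested, 1.07% were higher and 3.38% lower by this rule, 4.45% together. The gene was Hoxd12 (chr2:74675013-74677705, plus strand, mm10), which rose. It was at 2.11, 3.89 and 2.84 FPKM under the knockout label and at 1.71, 0.903 and 1.25 FPKM in Dnmt3b+/+ embryos. The groups did not overlap, with embryo 2 highest. The log2 fold change was 1.13 ± 0.30 (SE), with an adjusted p of 0.0265 from limma and a two-sided exact permutation p of 0.1. The call was lost when Dnmt3b+/+ embryo 2 or 3 or embryo 2 or 3 labelled Dnmt3b-/- was left out, with log2 fold changes between 0.92 and 1.14. It was also lost with a pseudocount of 1 FPKM (0.78), without the filter on low values, and with the replicate number as a block in the model.

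Other posterior genes of the same end of the Hoxa and Hoxd clusters lay higher without passing. Hoxa11, which acts in the forearm, was at 4.36, 7.39 and 4.96 FPKM under the knockout label and at 4.0, 1.62 and 2.30 FPKM in Dnmt3b+/+, again without overlap (log2 fold change 1.11 ± 0.37, adjusted p = 0.0554 by limma). With Hoxd12 it was 1 of 2 of the 38 genes with such a gap upwards, which 15.1% of all genes showed. A gap downwards was found for 0 Hox genes and 23.8% of all genes. For Hoxd13 the log2 fold change was 0.80 ± 0.34 (adjusted p = 0.110) and for Hoxa13 it was 0.65 ± 0.35 (adjusted p = 0.198). Hoxc11 had the largest estimate, 2.09 ± 0.87 (adjusted p = 0.109), and rests on a library with 0 reads, so that it depends on the pseudocount. Hoxc13, the last gene of its cluster, had −0.33 ± 0.87.

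For the trunk genes the estimates were negative and their errors large. Hoxb9 had a log2 difference of −1.97 ± 1.09 (SE, adjusted p = 0.211), Hoxb8 one of −2.03 ± 1.07 (adjusted p = 0.193) and Hoxd8 one of −1.15 ± 0.42 (adjusted p = 0.0771). Hoxa5 had −0.75 ± 0.64 and Hoxc8 −0.97 ± 0.65. With single embryos left out, Hoxa5 ranged from −1.55 to −0.04 and Hoxc8 from −1.9 to −0.34. The anterior gene Hoxb1 had a positive estimate, 0.82 ± 0.39, and Hoxd4 had −0.62 ± 0.59. The median over the 38 genes was −0.44, beside −0.07 over all genes tested, and 13 of 38 estimates were positive. Without embryo 3 labelled Dnmt3b-/- that median turned to 0.17, and without embryo 1 it was −1.02.

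Embryo 1 labelled Dnmt3b-/- decided how many Hox genes passed. Leaving it out, 16 were lower and 4 higher than in Dnmt3b+/+, beside 6.05% and 1.30% of all genes tested in the same fit. The 16 were Hoxa5, Hoxa6, Hoxa7, Hoxb5, Hoxb6, Hoxb7, Hoxb8, Hoxb9, Hoxc4, Hoxc5, Hoxc6, Hoxc8, Hoxc9, Hoxd1, Hoxd4 and Hoxd8, of which 13 belong to paralog groups 5 to 9. The 4 higher genes were Hoxa11, Hoxd11, Hoxd12 and Hoxd13. In that fit Hoxb9 fell by 3.52 on the log2 scale (SE 0.28, adjusted p = 0.000213) and Hoxa7 by 1.99 (SE 0.10, adjusted p = 3.7e-05), and Hoxd13 rose by 1.09 (SE 0.32, adjusted p = 0.0309). The group then had 2 embryos, and the result says that these libraries differed from the Dnmt3b+/+ ones, not that embryos labelled Dnmt3b-/- do. Dnmt3b+/+ embryo 1 mattered for the posterior genes: without it, 7 were higher (Hoxa10, Hoxa11, Hoxc10, Hoxc11, Hoxd10, Hoxd11 and Hoxd12), beside 1.25% of all genes.

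**Figure D4:**
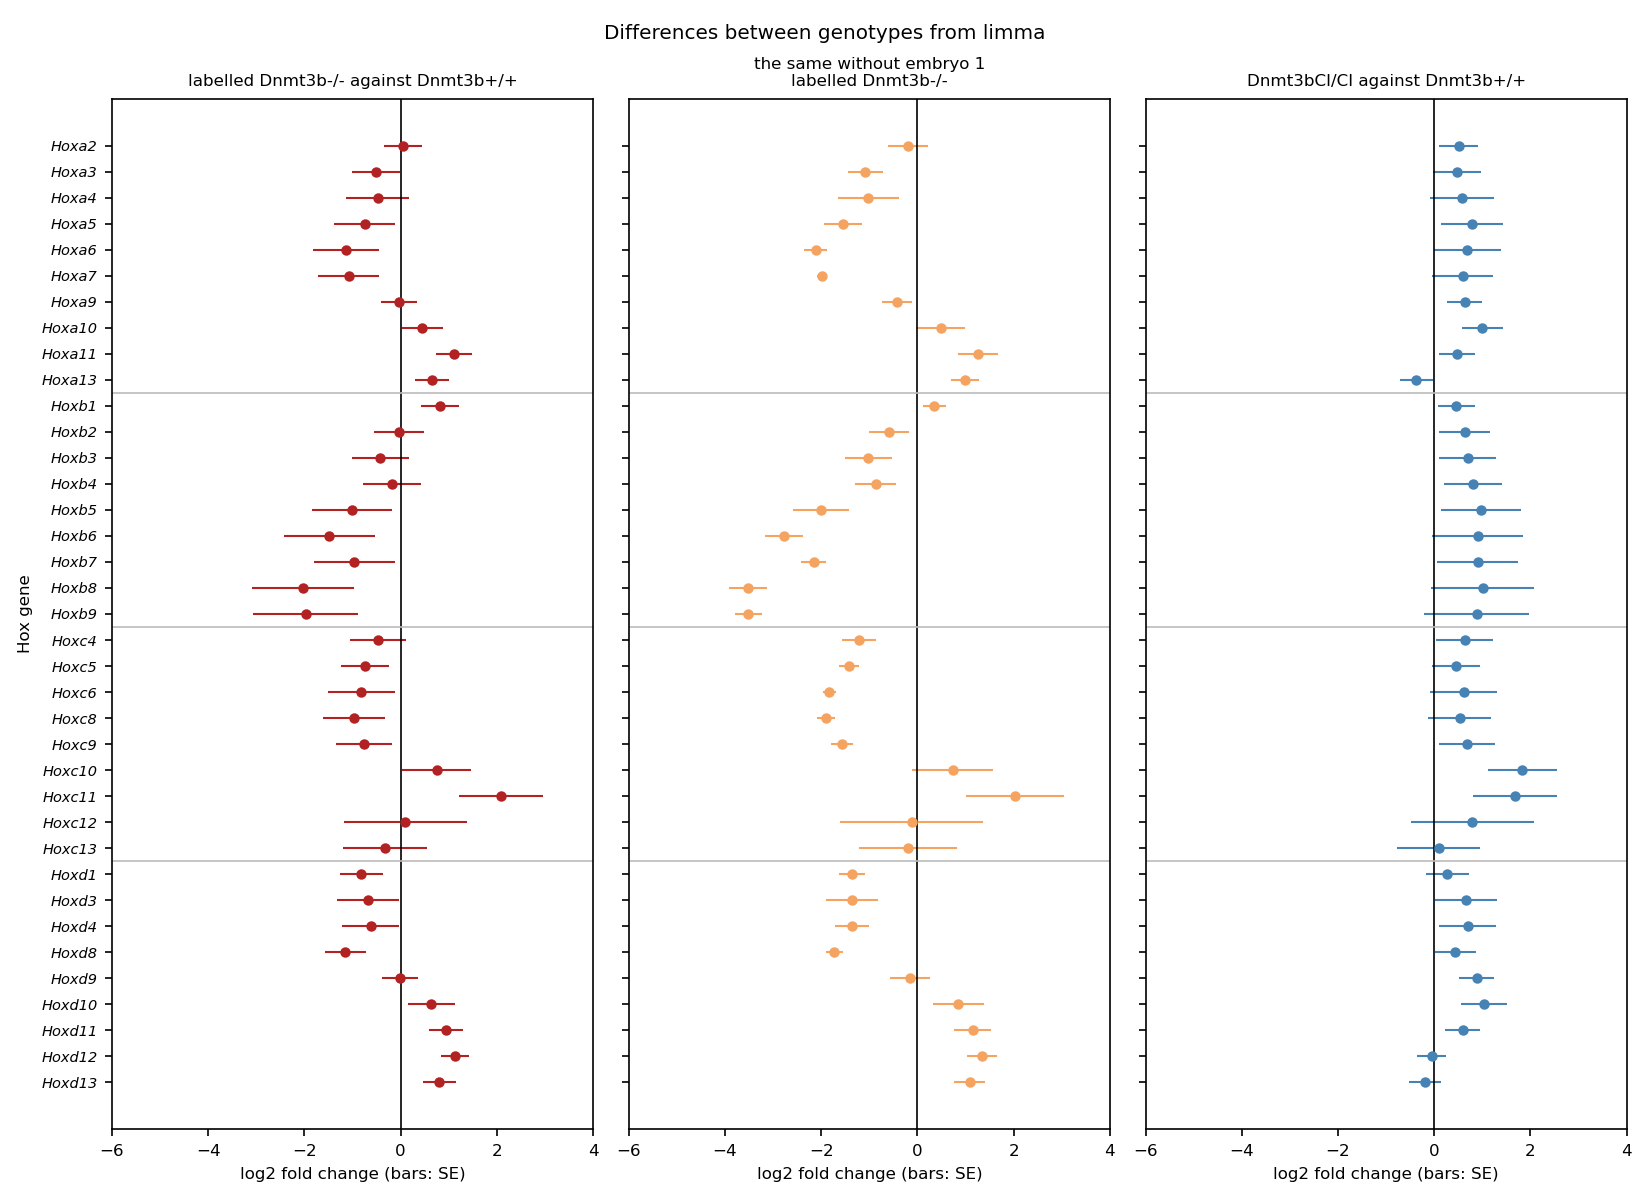
Log2 fold change with its SE from limma for Hox genes, with embryos labelled Dnmt3b-/- against Dnmt3b+/+ (left), the same without embryo 1 of that label (middle) and Dnmt3bCI/CI against Dnmt3b+/+ (right). The trunk genes of the Hoxb cluster move from −1.97 with an SE of 1.09 at Hoxb9 to −3.52 with an SE of 0.28 when that embryo is left out, and the estimates of the right panel's comparison are positive for 35 of the 38 genes tested.

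In Dnmt3bCI/CI embryos the Hox genes lay above Dnmt3b+/+ almost throughout, by amounts that no single gene's test could separate from the spread. Of the 38 genes, 0 passed in either direction by limma with Benjamini-Hochberg adjustment, 3 had an unadjusted p under 0.05, and 0.129% of all genes tested passed. The estimate was positive for 35 of 38 genes, with a median of 0.63 beside 0.02 over all genes tested. For 14 genes (36.8%) all 3 Dnmt3bCI/CI embryos were above all 3 Dnmt3b+/+ embryos, beside 7.53% of all genes. For 0 Hox genes did they all lie below, beside 5.65% of all genes. The 14 were Hoxa5, Hoxa6, Hoxa7, Hoxb1, Hoxb4, Hoxb7, Hoxb8, Hoxb9, Hoxc5, Hoxc6, Hoxc8, Hoxc9, Hoxd4 and Hoxd8, 11 of them from paralog groups 5 to 9 and 0 from groups 10 to 13.

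The gaps between the groups differed in width. Hoxa5 was at 17.5, 21.7 and 21.2 FPKM in Dnmt3bCI/CI embryos, against a highest Dnmt3b+/+ value of 17.2 FPKM, and its log2 fold change was 0.79 ± 0.64 (adjusted p = 0.949 by limma). Hoxb9 was at 23.7, 28.3 and 25.7 FPKM (log2 fold change 0.88 ± 1.09), Hoxc8 at 8.46, 9.94 and 8.64 FPKM, against at most 6.82 FPKM in Dnmt3b+/+ (0.53 ± 0.65), and Hoxd4 at 7.32, 9.74 and 9.10 FPKM, against at most 6.0 FPKM (0.70 ± 0.59). The SE of each gene includes the disagreement of the embryos labelled Dnmt3b-/-, which share the estimate of spread. In a fit of the 2 genotypes alone, 0 Hox genes passed as well.

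The most posterior genes of the Hoxa and Hoxd clusters had estimates below 0. Hoxd13 was at 4.06, 6.80 and 3.26 FPKM in Dnmt3bCI/CI embryos, overlapping with Dnmt3b+/+ (log2 difference −0.19 ± 0.34), and Hoxa13 at 0.883, 1.42 and 0.736 FPKM (−0.37 ± 0.35). Hoxd12 was at 1.13, 1.69 and 0.893 FPKM (−0.05 ± 0.30). Hoxc13 was at 0.0815, 0.610 and 0.507 FPKM and Hoxc11 at 0.364, 1.66 and 1.74 FPKM, both low in embryo 1. Hoxc10 had the lowest p, with 5.67, 8.58 and 7.0 FPKM and a log2 fold change of 1.83 ± 0.72 (adjusted p = 0.904). Without Dnmt3b+/+ embryo 1 it was the 1 Hox gene that passed (2.84 ± 0.24, adjusted p = 0.00491), beside 0.113% of all genes.

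Forebrain markers lay lower in the same embryos. The 8 forebrain and midbrain markers, from tissue mostly in front of the Hox domain, summed to 27.6, 11.9 and 37.5 FPKM in Dnmt3bCI/CI and to 52.3, 54.1 and 50.2 FPKM in Dnmt3b+/+ embryos. All 8 had negative estimates, with a median of −1.59, though 0 of 8 passed the adjusted test and none was at 0 reads. Their part in the Hox values was not tested. Leaving out Dnmt3b+/+ embryo 2 and Dnmt3bCI/CI embryo 2 together, a choice made after seeing the data, the median over the 38 Hox genes was 0.61, with 32 positive, and 24 genes lay wholly above with 2 embryos against 2, beside 20.5% of all genes, while 3 lay wholly below, beside 17.5%.

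Between the mutants, 1 Hox gene was higher and 1 lower in the embryos labelled Dnmt3b-/- than in Dnmt3bCI/CI, beside 1.10% and 4.32% of all genes tested, 5.42% together. Hoxd12 was higher, with a log2 fold change of 1.19 ± 0.30 (SE, adjusted p = 0.0206 by limma) and no overlap between its groups. Hoxd8 (chr2:74704615-74707933, plus strand, mm10), a trunk gene, was lower. It was at 3.55, 1.19 and 0.827 FPKM under the knockout label and at 4.02, 5.03 and 5.59 FPKM in Dnmt3bCI/CI embryos. The groups did not overlap, embryo 1 lying close below, and the log2 difference was −1.59 ± 0.42 (adjusted p = 0.0251). In Dnmt3b+/+ embryos it was at 3.74, 3.69 and 3.20 FPKM. This comparison and the one with Dnmt3b+/+ share the embryos labelled Dnmt3b-/-.

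The groups did not overlap for 1 gene that was higher (Hoxd12), beside 16.7% of all genes, and for 3 that were lower (Hoxc10, Hoxd8 and Hoxd9), beside 29.5%. Without embryo 1 labelled Dnmt3b-/- they were 4 higher, beside 23.6%, and 27 lower, beside 41.3%. Without Dnmt3bCI/CI embryo 1 they were 1 higher, beside 19.1%, and 12 lower, beside 33.7%. The median over the 38 genes was −1.07, beside −0.08 over all genes tested, and it was −1.63 without embryo 1 and −0.43 without embryo 3 labelled Dnmt3b-/-. In the same comparison the 8 forebrain and midbrain markers had a median of 1.41, with 7 of 8 positive and 2 passing, Otx1 (1.96 ± 0.56, adjusted p = 0.0317) and Otx2 (2.26 ± 0.35, adjusted p = 0.00306), and their part in the Hox values was not tested. Without embryo 1 labelled Dnmt3b-/-, 22 genes were lower and 3 higher (Hoxa13, Hoxd12 and Hoxd13), beside 6.94% and 1.33% of all genes. Both calls of the full data were lost without embryo 2 or 3 of that label, and without Dnmt3bCI/CI embryo 1 or 3. The Hoxd8 call was also lost without Dnmt3bCI/CI embryo 2 and without the filter on low values. The Hoxd12 call was also lost with a pseudocount of 1 FPKM (log2 fold change 0.81) and with the replicate number as a block in the model.

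Genes that act with the Hox proteins did not pass the 2-fold rule in any comparison. Of 9 cofactor genes of the Pbx, Meis and Pknox families, whose homeodomain proteins bind DNA beside Hox proteins, 1 was higher and 0 were lower in the embryos labelled Dnmt3b-/- at any fold change. That was Pbx2, at 29.2, 30.4 and 29.3 FPKM against 24.9, 22.0 and 25.7 FPKM (log2 fold change 0.29 ± 0.07, adjusted p = 0.0234 by limma). In that comparison 9.41% of all genes tested were higher and 16.4% lower at any fold change. In Dnmt3bCI/CI embryos 0 of 9 passed against Dnmt3b+/+. Against Dnmt3bCI/CI, Pbx2 was higher under the knockout label (0.40 ± 0.07, adjusted p = 0.0066), and Pknox1 (−0.50 ± 0.11, adjusted p = 0.0123) and Pknox2 (−0.41 ± 0.11, adjusted p = 0.0222) were lower, 1 and 2 of 9 at any fold change, beside 9.70% and 18.2% of all genes, 27.9% together.

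Among 20 regulators of the Cdx, Gdf11 and retinoic acid pathways and of the hindbrain, 18 were tested, of which 4 were higher and 2 lower in the embryos labelled Dnmt3b-/- at any fold change. At any fold change 9.41% of all genes were higher and 16.4% lower. Crabp1, which binds retinoic acid in the cytoplasm, was at 124, 153 and 136 FPKM against 64.7, 71.5 and 69.1 FPKM (1.00 ± 0.10, adjusted p = 0.00056). Cyp26c1, which degrades retinoic acid, was at 1.29, 1.91 and 1.24 FPKM against 0.397, 0.310 and 0.628 FPKM (1.55 ± 0.23, adjusted p = 0.0031). For both genes, unlike the trunk Hox genes, embryo 1 stood with embryos 2 and 3. Crabp2 and Gdf11 were higher and Rdh10 lower by less than 2-fold. Cdx1 and Cdx4 were below the level tested in all genotypes, and in Dnmt3bCI/CI embryos 0 of 18 passed.

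Noncoding RNAs of the clusters were listed for 10 of 20 names looked for. In the embryos labelled Dnmt3b-/- 1 of them was higher and 0 were lower at any fold change. Hottip, transcribed from the 5′ end of the Hoxa cluster, was at 0.192, 0.474 and 0.334 FPKM against 0.171, 0.112 and 0.0797 FPKM (0.94 ± 0.28, adjusted p = 0.0420). Hoxb3os and Hoxb5os, antisense to the genes they are named after, were at 17.9, 9.44 and 3.16 FPKM and at 12.0, 1.96 and 0.638 FPKM under the knockout label, high in embryo 1 and low in embryo 3 as their partners were. Hoxb3os covers 52.9% of the exon sequence of Hoxb3, and Hoxb5os 3.6% of that of Hoxb5. Shared reads may be counted for both genes of a pair, so the likeness is not independent. Outside the clusters, 20 flanking genes were tested, of which 4 were higher (Cbx1, Mtx2, Hnrnpa3 and Hnrnpa1) and 1 lower (Jazf1), each by less than 2-fold. Over all genes tested, 9.41% were higher and 16.4% lower under the knockout label at any fold change. In Dnmt3bCI/CI embryos 0 noncoding RNAs and 0 flanking genes passed.

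Markers of tissues that use Hox genes were summed in each library. The 8 limb bud mesenchyme markers summed to 60.4, 92.8 and 86.7 FPKM in embryos 1, 2 and 3 labelled Dnmt3b-/-, to 51.1 to 68.7 FPKM in Dnmt3b+/+ and to 51.6 to 62.7 FPKM in Dnmt3bCI/CI embryos. Embryos 2 and 3 labelled Dnmt3b-/-, where Hoxd13 was highest, thus also had the highest limb sums. Of these markers 1 of 8, Msx1, was higher than in Dnmt3b+/+ at any fold change (0.85 ± 0.23, adjusted p = 0.0281) and 0 were lower, and none was at 0 reads. The shares over all genes tested were 9.41% and 16.4%. The hindlimb gene Tbx4 was at 1.39, 3.76 and 2.65 FPKM, against 0.667 to 1.80 FPKM in Dnmt3b+/+ and 1.25 to 2.21 FPKM in Dnmt3bCI/CI embryos (1.09 ± 0.42 against Dnmt3b+/+, adjusted p = 0.0875). Its groups overlapped, and other genes of the list did not all lie higher. The forelimb gene Tbx5 was at 2.23, 2.87 and 2.18 FPKM against 2.39 to 2.59 FPKM in Dnmt3b+/+, and the hindlimb gene Pitx1 at 13.2, 23.7 and 20.2 FPKM overlapped with 9.76 to 22.0 FPKM. Lmx1b, which patterns the dorsal limb, was at 4.0, 4.29 and 3.90 FPKM, below the 4.63 to 7.40 FPKM of Dnmt3b+/+ (−0.41 ± 0.17, adjusted p = 0.108).

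Markers of trunk tissues were summed in the same way. The 9 hindbrain and spinal cord markers summed to 30.4, 20.8 and 16.5 FPKM in embryos 1, 2 and 3 labelled Dnmt3b-/- and to 21.1, 31.7 and 23.9 FPKM in Dnmt3b+/+, and 0 of 9 passed. The motor neuron gene Mnx1 was at 1.33, 0.366 and 0.0438 FPKM under the knockout label and at 0.446 to 0.468 FPKM in Dnmt3b+/+. Olig2, a motor neuron progenitor gene of the same list, ran in the opposite order, at 1.37, 2.96 and 4.87 FPKM against 1.96 to 3.18 FPKM. The 7 sclerotome and somite markers summed to 69.9, 48.7 and 37.7 FPKM against 51.7 to 61.8 FPKM, with 1 of 7 higher (Tcf15) and 1 lower (Sox9). Those counts were at any fold change, beside 9.41% and 16.4% of all genes tested. The 6 urogenital ridge markers summed to 32.4, 23.2 and 19.7 FPKM against 24.8 to 32.4 FPKM, with 0 of 6 passing. In all of these lists embryo 1 labelled Dnmt3b-/- was the highest of its group and embryo 3 the lowest.

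The remaining lists moved less evenly with the Hox genes. Of 6 tail bud markers tested, 1 was higher under the knockout label, Fgf8, at 1.06, 3.43 and 2.85 FPKM against 0.372 to 0.830 FPKM (1.74 ± 0.40, adjusted p = 0.0163), and Msgn1 was at or near the no-read value in every library. Of the 6 blood markers, the embryonic globins Hbb-bh1 (3.01 ± 0.48, adjusted p = 0.00418) and Hba-x (1.79 ± 0.42, adjusted p = 0.0180) were higher. Of 5 fetal liver markers 0 were higher and 1 was lower, Ttr (−2.19 ± 0.47, adjusted p = 0.0121). Alb, Apoa1 and Ahsg were lower in all embryos of the knockout label than in every other embryo except Dnmt3b+/+ embryo 2. Alb was at 9.92, 19.2 and 9.67 FPKM there, against 42.1 to 59.9 FPKM in Dnmt3bCI/CI embryos. Afp overlapped with both other genotypes. Ttr did not go with the other 4 of its list, since it was highest, at 35.5 FPKM, in Dnmt3b+/+ embryo 2, where Alb, Afp, Apoa1 and Ahsg were at 0.0136 to 0.119 FPKM. Of the 8 forebrain and midbrain markers 0 passed. At any fold change 9.41% of all genes tested were higher under the knockout label and 16.4% lower. In Dnmt3bCI/CI embryos 0 markers of any of these lists passed against Dnmt3b+/+. What part the tissue content of each embryo has in its Hox levels was not tested.

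**Figure D5:**
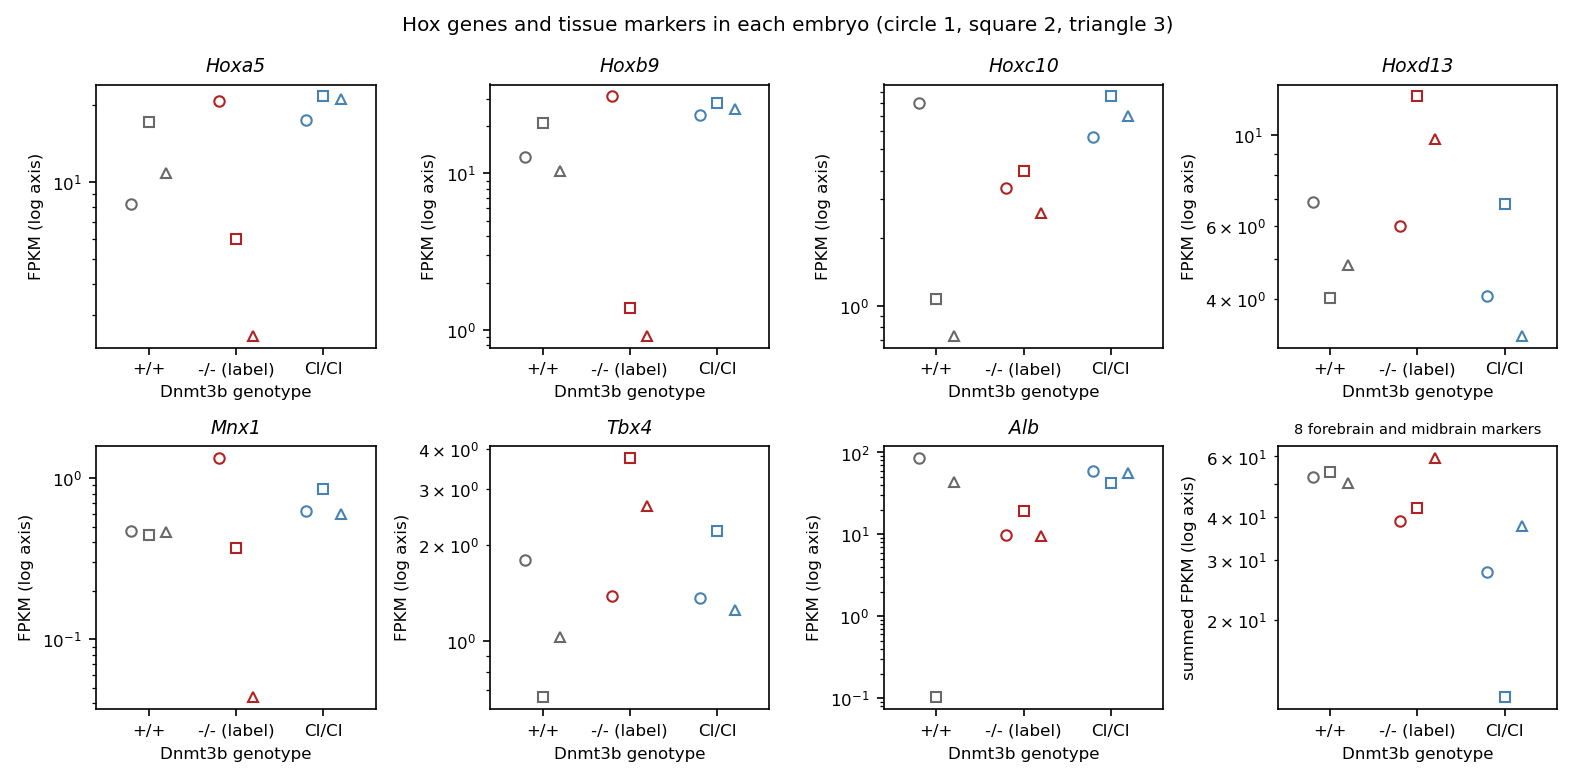
FPKM (log axis, each panel with its own range) of 4 Hox genes (top), and of 3 tissue markers and the sum of 8 forebrain and midbrain markers (bottom) in each embryo, by genotype, with a circle, square and triangle for embryos 1, 2 and 3. Hoxb9 and Mnx1 are high in embryo 1 labelled Dnmt3b-/- (31.0 and 1.33 FPKM) and low in embryo 3 (0.920 and 0.0438), an order that Olig2 of the same marker list did not share, Hoxd13 and Tbx4 are highest in embryo 2 (12.4 and 3.76), Alb is far below the rest at 0.103 in Dnmt3b+/+ embryo 2, and the forebrain and midbrain sum is lowest at 11.9 in Dnmt3bCI/CI embryo 2.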

How the data were processed

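The authors sequenced total RNA as 150-base paired-end reads, aligned them after trimming to mm10 by STAR, discarded alignments of a mapping quality under 50 and quantified genes in SeqMonk, depositing 1 table of FPKM values on the linear scale for all 9 embryos. Strandedness and the annotation release are not given in the sources used here. Genotypes and embryo numbers came from the labels. The study's methods name DESeq2, which was not run because the values are not counts. The table holds no zeros: a gene without reads carries a value worth 0.9 reads. With GENCODE M21 exon lengths, 348 of the 351 Hox values came out as whole reads within 0.02, and the other 3 were at that value. A row without a gene name was left out.

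The 19397 genes that reached 0.1 FPKM in 3 or more of 9 embryos entered limma 3.58.1 (R 4.3.3) as log2(FPKM + 0.1), with all 3 genotypes in the model, a trended prior variance and Benjamini-Hochberg adjustment over all of them. A gene passed with a 2-fold or larger change and an adjusted p below 0.05. Fold changes on this scale understate those of low genes. Single values were compared by exact permutation, whose smallest p is 0.1. P-values from limma rest on the spread between embryos within all 3 genotypes together, drawn toward the trend over all genes. The fit was tested on simulated data. Per-embryo values were given for Hox genes that passed in any comparison and for the highest, lowest and last of each cluster, and other genes named with values were chosen after their values were seen. The Hox genes and the lists were chosen with earlier results of these data known. Alternatives were other pseudocounts, filters, scalings, models and each embryo left out. Values of some single genes are not reported here, in text or plots, though counts, medians and sums include them. Bisulfite sequencing was not analysed here.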

Additional observations from a re-analysis of the deposited data

How the results depend on the processing

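With each of the 9 embryos left out in turn, the Hox genes higher under the knockout label than in Dnmt3b+/+ numbered 0 to 7 and those lower 0 to 16, with or without the fold threshold. Against Dnmt3bCI/CI they numbered 0 to 3 higher and 0 to 22 lower, and Dnmt3bCI/CI against Dnmt3b+/+ 0 to 1 higher. Over all genes, 427 to 1174 were lower under the knockout label than in Dnmt3b+/+ (655 in the full data), 563 to 1346 lower than in Dnmt3bCI/CI (838), and 0 to 2 lower in Dnmt3bCI/CI than in Dnmt3b+/+ (0). The highest counts of lower Hox genes came without embryo 1 labelled Dnmt3b-/-, and a group left with 2 embryos shares the spread of the others. Some single calls appeared with 1 library left out: Hoxb1 against Dnmt3b+/+ without embryo 3 labelled Dnmt3b-/- (log2 fold change 1.24), Hoxa11 in that comparison without Dnmt3bCI/CI embryo 2, and against Dnmt3bCI/CI Hoxa13 without Dnmt3b+/+ embryo 2 (1.01) and Hoxd13 without Dnmt3bCI/CI embryo 2 (1.28).

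A pseudocount of 1 FPKM gave 0 Hox genes higher under the knockout label against either genotype, and over all genes 60 higher and 133 lower against Dnmt3b+/+, 57 higher and 185 lower against Dnmt3bCI/CI and 8 higher in Dnmt3bCI/CI than in Dnmt3b+/+. A pseudocount of 0.01 FPKM gave 1028 genes lower than in Dnmt3b+/+. Without the filter, 0 Hox genes were higher than in Dnmt3b+/+ and 0 lower than in Dnmt3bCI/CI, at any fold change. A filter of 1 FPKM, which tests fewer genes, gave 96 higher and 388 lower against Dnmt3b+/+ and 105 and 492 against Dnmt3bCI/CI. Quantile normalization gave 392 genes lower than in Dnmt3b+/+, and 330 higher and 495 lower than in Dnmt3bCI/CI, among them 2 Hox genes higher. With only the 2 genotypes compared, 2 Hox genes were lower than in Dnmt3bCI/CI, and 3 at any fold change. Without Dnmt3b+/+ 2 and Dnmt3bCI/CI 2 together, chosen after seeing the data, 0 Hox genes were higher than in Dnmt3b+/+, 3 were higher and 0 lower than in Dnmt3bCI/CI, and 12 genes were higher in Dnmt3bCI/CI than in Dnmt3b+/+. Apart from embryos left out and fewer genes tested, the cause of these shifts was not tested.

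With the replicate number as a block, 0 Hox genes were higher under the knockout label than in Dnmt3b+/+ or Dnmt3bCI/CI, at any fold change. The numbers do not pair the embryos: same-numbered embryos of different genotypes had a mean correlation of deviations of −0.0866 against 0.0478 for other pairs, 1 of 9 same-numbered pairs was over 0.1, and 1 of 9 embryos correlated best with its own number.

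Some estimates changed sign, none of them past the threshold in the full data. For Hoxc13 in Dnmt3bCI/CI against Dnmt3b+/+ (0.09) the log2 difference was −0.074 with a pseudocount of 1 FPKM, −0.78 without embryos 2 of both genotypes and −0.42 to 1.10 with single embryos left out. In the same comparison Hoxd12 ranged from −0.29 to 0.16 and Hoxd13 from −0.48 to 0.037. Against Dnmt3b+/+ under the knockout label, Hoxc13 ranged from −0.84 to 0.68 and Hoxd4 (−0.62) from −1.36 to 0.084, positive without embryo 3 of that label. Against Dnmt3bCI/CI, Hoxb1 (0.37) ranged from −0.11 to 0.78 and Hoxc11 (0.41) from −0.24 to 0.93. Without the libraries low in liver or forebrain RNA the direction of the Hox median did not turn in any comparison. Depth limits Hoxb13, Hoxb1, Hoxc12, Hoxc13 and Hoxc11, which had 49 to 833 reads over all libraries.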
